A study of Mus musculus with 12 samples.

Results

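The expression of 9 complement genes was described in epididymal white adipose tissue (eWAT), the visceral fat pad beside the epididymis. They are the C1q chains *C1qa*, *C1qb* and *C1qc*, the components *C3* and *C4b*, factor B (*Cfb*), properdin (*Cfp*), and the anaphylatoxin receptors *C3ar1* and *C5ar1*. The members were named by symbol and are 9 of the 22870 genes to which the transcripts were summed. All 9 passed the filter on low values. The tissue came from male C57BL/6J mice, 21 weeks old, of which 3 in each of 4 groups were sequenced. Feeding lasted 16 weeks and used a normal diet (ND), a high-fat diet (HFD), the same HFD with an ethanol extract of chrysanthemum leaves (CLE) at 1.5% by weight, or the HFD with luteolin (LU), a flavonoid of the leaf, at 0.003% by weight. The HFD is thus shared by the HFD, CLE and LU groups, and the supplements were not tested on the ND. The study sequenced representative mice of each group, and how these were chosen is not given in the sources used here.

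Complement is a chain of plasma proteins that marks cells and debris for removal and calls in leukocytes. C1q opens the classical pathway and is made mainly by macrophages and dendritic cells. Its proteases cleave C4 and C2, whose fragments form an enzyme that cleaves C3. The alternative pathway builds its own C3-cleaving enzyme from C3 and factor B. Factor D (*Cfd*, also called adipsin) activates factor B, and properdin stabilises the complex. Adipocytes are the main source of factor D. The fragments C3a and C5a act on leukocytes through the receptors that *C3ar1* and *C5ar1* encode.

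The measure is FPKM, fragments of a transcript scaled by its length and by the mapped fragments of the library, so levels can be compared between genes as well as between mice. Each value below is 1 mouse. Differences are on the log2(FPKM + 1) scale, with the standard error (SE) of a fit over all 12 libraries and 12769 genes. A gene was called when its fold change exceeded 1.5 and its Benjamini-Hochberg adjusted p was below 0.05. The depth behind the values is unknown, since read counts could not be recovered from the FPKM. The column taken for ND mouse 4 is headed differently from its label and was assigned by inference. The titles of 4 libraries (mice 3 and 4 of the ND, mouse 4 of CLE and mouse 2 of LU) hold the letter R, which may mark a batch. No HFD library holds it. The fat markers defined the tissue in every library, with *Fabp4* at 10463 FPKM or more.

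The promoters of the members that changed most are shown first, because these genes moved together. RefSeq (build GRCm38.p6) held a promoter window for 6 of the 9 members. Each runs from 250 bases before the start that RefSeq gives to 50 bases after it. For *C1qc* and *C5ar1* that start lies well inside the gene span given below. The sequences are those of *C1qb* (chr4:136886151-136886450), *C1qc* (chr4:136892865-136893164), *C3* (chr17:57228087-57228386), *C3ar1* (chr6:122856108-122856407) and *C5ar1* (chr7:16259289-16259588). All of these lie on the minus strand and are written in the direction of the gene, with the matches to 4 short motifs in capitals.
C1qb: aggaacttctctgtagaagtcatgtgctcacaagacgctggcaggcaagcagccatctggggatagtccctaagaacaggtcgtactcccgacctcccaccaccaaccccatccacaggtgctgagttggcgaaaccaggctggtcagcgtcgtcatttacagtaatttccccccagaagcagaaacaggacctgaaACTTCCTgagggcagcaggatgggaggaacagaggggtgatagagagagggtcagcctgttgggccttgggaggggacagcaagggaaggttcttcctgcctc
C1qc: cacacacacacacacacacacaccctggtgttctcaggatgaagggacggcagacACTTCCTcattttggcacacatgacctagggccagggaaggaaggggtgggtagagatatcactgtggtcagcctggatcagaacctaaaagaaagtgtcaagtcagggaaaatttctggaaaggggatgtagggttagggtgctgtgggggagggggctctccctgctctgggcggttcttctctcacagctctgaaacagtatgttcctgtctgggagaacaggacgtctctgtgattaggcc
C3: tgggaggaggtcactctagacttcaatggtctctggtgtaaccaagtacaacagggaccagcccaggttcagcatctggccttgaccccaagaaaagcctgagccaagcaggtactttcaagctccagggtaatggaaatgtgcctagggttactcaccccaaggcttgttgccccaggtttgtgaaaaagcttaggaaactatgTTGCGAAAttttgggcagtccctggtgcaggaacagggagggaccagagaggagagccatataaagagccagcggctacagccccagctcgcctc
C3ar1: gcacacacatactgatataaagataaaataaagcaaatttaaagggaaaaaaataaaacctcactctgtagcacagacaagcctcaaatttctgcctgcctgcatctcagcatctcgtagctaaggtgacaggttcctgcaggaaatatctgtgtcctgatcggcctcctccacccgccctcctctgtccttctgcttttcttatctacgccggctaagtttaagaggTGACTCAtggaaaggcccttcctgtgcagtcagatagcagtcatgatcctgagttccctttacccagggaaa
C5ar1: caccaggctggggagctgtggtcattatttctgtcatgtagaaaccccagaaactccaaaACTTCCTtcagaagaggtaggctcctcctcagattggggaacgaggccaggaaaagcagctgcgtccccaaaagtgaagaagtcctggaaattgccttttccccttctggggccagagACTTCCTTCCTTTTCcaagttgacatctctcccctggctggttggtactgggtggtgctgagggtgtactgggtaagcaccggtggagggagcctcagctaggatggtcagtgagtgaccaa

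The motifs were searched on both strands and were chosen with the sequences in view. AGGAAGT, the core that PU.1 and other ETS factors bind, was found in *C1qb* from base -53 to -47, in *C1qc* from -195 to -189, and in *C5ar1* from -190 to -184 and from -72 to -66, each time on the opposite strand as ACTTCCT. It occurs in 9.35% of the 32851 promoter windows of this length. GAAANNGAA, a motif of interferon regulatory factors (IRF), was found in *C5ar1* from -66 to -58, where it shares 1 base with the second ETS match, and in 8.56% of all windows. *C3* held the C/EBP motif TTGCNNAA from -45 to -38, as did 10.8% of all windows. In *C3ar1*, the AP-1 motif TGACTCA stood from -22 to -16, and 5.2% of all windows held it. The window of *Cfp*, whose sequence is not shown, held none of the 4 motifs. Positions count from the RefSeq start of each window. All matches in *C5ar1* lie inside its gene span, downstream of the start of its main transcript. A match describes the letters and is not evidence of binding.

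The C1q chains lie side by side on chromosome 4 (GRCm38, *C1qb* at 136880129-136886187, *C1qc* at 136889804-136893065 and *C1qa* at 136895917-136898803) and encode the subunits of 1 protein. *C1qa* was 39.0, 50.4 and 40.7 FPKM in the ND mice and 147, 134 and 110 in the HFD mice. It was 56.3, 61.5 and 59.2 FPKM with CLE and 66.9, 90.1 and 69.2 with LU. All HFD mice were above all others, and the ND mice were below all others. *C1qa* rose by 1.57 ± 0.14 (log2, SE) with the HFD (adjusted p = 5.94e-06). It fell by 1.12 ± 0.14 with CLE (adjusted p = 0.000153) and by 0.79 ± 0.14 with LU (adjusted p = 0.00239), both against the HFD.

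*C1qb* changed more than *C1qa*. Its levels were 36.8, 51.2 and 39.9 FPKM with the ND, 272, 230 and 217 with the HFD, 61.7, 68.7 and 81.1 with CLE, and 83.8, 95.7 and 97.2 with LU. The 4 groups did not overlap. The rise with the HFD was 2.47 ± 0.14 (adjusted p = 5.95e-07), and the falls were 1.75 ± 0.14 with CLE (adjusted p = 1.95e-05) and 1.36 ± 0.14 with LU (adjusted p = 0.00016). *C1qc* was 35.6, 44.6 and 37.5 FPKM in the ND mice, 199, 168 and 162 in the HFD mice, 55.7, 59.2 and 59.8 in the CLE mice and 68.7, 75.2 and 73.2 in the LU mice. Again no group overlapped another. *C1qc* rose by 2.14 ± 0.10 with the HFD and fell by 1.58 ± 0.10 with CLE and by 1.27 ± 0.10 with LU (adjusted p = 5.01e-07, 1.69e-05 and 0.000101).

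The chains overlapped in level in the ND group and parted with the HFD. The ratio of *C1qb* to *C1qa* was 0.979 ± 0.036 (SD, n = 3) with the ND, and 1.84 ± 0.13 with the HFD. It was 1.19 ± 0.15 with CLE and 1.24 ± 0.17 with LU. The ratio of *C1qc* to *C1qa* was also highest with the HFD, at 1.36 ± 0.11, against 0.906 ± 0.019 with the ND, 0.986 ± 0.024 with CLE and 0.973 ± 0.12 with LU. The HFD values overlapped none of the others in either ratio. For 3 against 3 mice, the exact permutation test cannot go below p = 0.1, which it reached for both ratios in HFD against ND, CLE against HFD and LU against HFD.

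*C3* (chromosome 17, 57203970-57228136), the component on which all pathways meet, had the highest mean of the members in the ND, HFD and LU groups. Its values were 209, 245 and 212 FPKM with the ND and 895, 853 and 861 with the HFD. With CLE it was 264, 308 and 329 FPKM, and with LU 431, 302 and 420. The HFD mice were far above every other mouse. The rise was 1.97 ± 0.14 (adjusted p = 1.04e-06), and the falls were 1.54 ± 0.14 with CLE (adjusted p = 2.57e-05) and 1.19 ± 0.14 with LU (adjusted p = 0.000207). Of the HFD increase in mean FPKM, 12.0% remained with CLE and 25.0% with LU. The main transcript, ENSMUST00000024988, made up 114 ± 15.1 FPKM of the sum with the ND and 313 ± 6.50 with the HFD. The rest came from a processed transcript and from assembled forms of the gene, and the split between these rests on the estimation by Cufflinks. The rank of *C3* above *C4b* depends on this rest. The main transcript of *C4b* was above that of *C3* in every group, at 145 FPKM with the ND and 352 with the HFD.

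*C4b* and *Cfb* lie in the class III region of the major histocompatibility complex on chromosome 17 (34728380-34743882 and 34856374-34862518). Both rose with the HFD, and neither fell by the test with CLE or LU. *C4b* was 135, 188 and 197 FPKM in the ND mice and 380, 394 and 329 in the HFD mice. With CLE it was 257, 301 and 375 FPKM, and with LU 352, 327 and 436, so that both groups overlapped the HFD mice. *C4b* rose by 1.10 ± 0.17 with the HFD (adjusted p = 0.000328). The difference from the HFD was -0.26 (95% interval -0.64 to 0.13, adjusted p = 0.283) with CLE and 0.01 (-0.37 to 0.39, adjusted p = 0.975) with LU. Mice carry the near-identical gene *C4a*, at 2.44 to 4.54 FPKM here, and reads shared by the pair could be split between them in the counting.

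*Cfb* was 78.4, 126 and 126 FPKM with the ND, 239, 281 and 239 with the HFD, 167, 185 and 237 with CLE, and 214, 210 and 270 with LU. The CLE mice were just below the HFD mice, and the LU mice overlapped them. The rise was 1.22 ± 0.19 (adjusted p = 0.000288). The differences from the HFD were -0.38 (-0.79 to 0.04, adjusted p = 0.152) with CLE and -0.14 (-0.55 to 0.28, adjusted p = 0.633) with LU. A readthrough gene covers parts of *Cfb* and of its neighbour *C2*, and the deposited gene name groups the 3 together. With the rows under that name, the rise was 0.63 ± 0.14 (adjusted p = 0.00339).

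Properdin, which leukocytes release, had the smallest rise of the members with the HFD. *Cfp* (X chromosome, 20925454-20931555) was 19.4, 24.2 and 17.3 FPKM in the ND mice and 33.4, 34.3 and 30.9 in the HFD mice. Its levels were 23.2, 27.8 and 24.6 FPKM with CLE and 31.7, 32.3 and 24.5 with LU. The CLE mice were below the HFD mice, and the LU mice overlapped them. *Cfp* rose by 0.68 ± 0.14 with the HFD (adjusted p = 0.00154), and without ND mouse 4 the value was 0.58, under the 1.5-fold threshold. The differences from the HFD were -0.37 (-0.67 to -0.07, adjusted p = 0.0538) with CLE and -0.16 (-0.46 to 0.14, adjusted p = 0.407) with LU. The deposited table lists these transcripts under the neighbouring gene *Elk1*, and they were assigned to *Cfp* by their identifiers.

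The anaphylatoxin receptors changed most, both with the HFD and between each supplemented group and the HFD. *C3ar1* (chromosome 6, 122847138-122856161), the receptor of C3a, was 3.45, 3.85 and 2.89 FPKM in the ND mice and 70.9, 56.2 and 68.3 in the HFD mice. With CLE it was 6.28, 7.78 and 15.3 FPKM, and with LU 13.1, 10.9 and 17.1. Every HFD mouse was far above the rest, and CLE mouse 11 stood within the LU mice. The mean FPKM with the HFD was 19.2 times that with the ND. On the log2 scale the rise was 3.91 ± 0.25 (adjusted p = 7.82e-07), and the falls were 2.70 ± 0.25 with CLE (adjusted p = 3.2e-05) and 2.18 ± 0.25 with LU (adjusted p = 0.000223).

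*C5ar1* (chromosome 7, 16246743-16259540), the receptor of C5a, was 8.55, 6.27 and 5.52 FPKM with the ND and 61.5, 54.5 and 62.6 with the HFD. It was 11.4, 13.9 and 21.8 FPKM with CLE and 18.6, 18.9 and 21.1 with LU. The HFD mice overlapped no other group, and CLE mouse 11 was again the highest of its group. The rise was 2.98 ± 0.20 (adjusted p = 8.87e-07), and the falls were 1.91 ± 0.20 with CLE (adjusted p = 5.01e-05) and 1.56 ± 0.20 with LU (adjusted p = 0.000342). The ligand side is shown only in part, since *Hc*, which encodes C5, was at most 0.25 FPKM in any mouse.

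**Figure D1:**
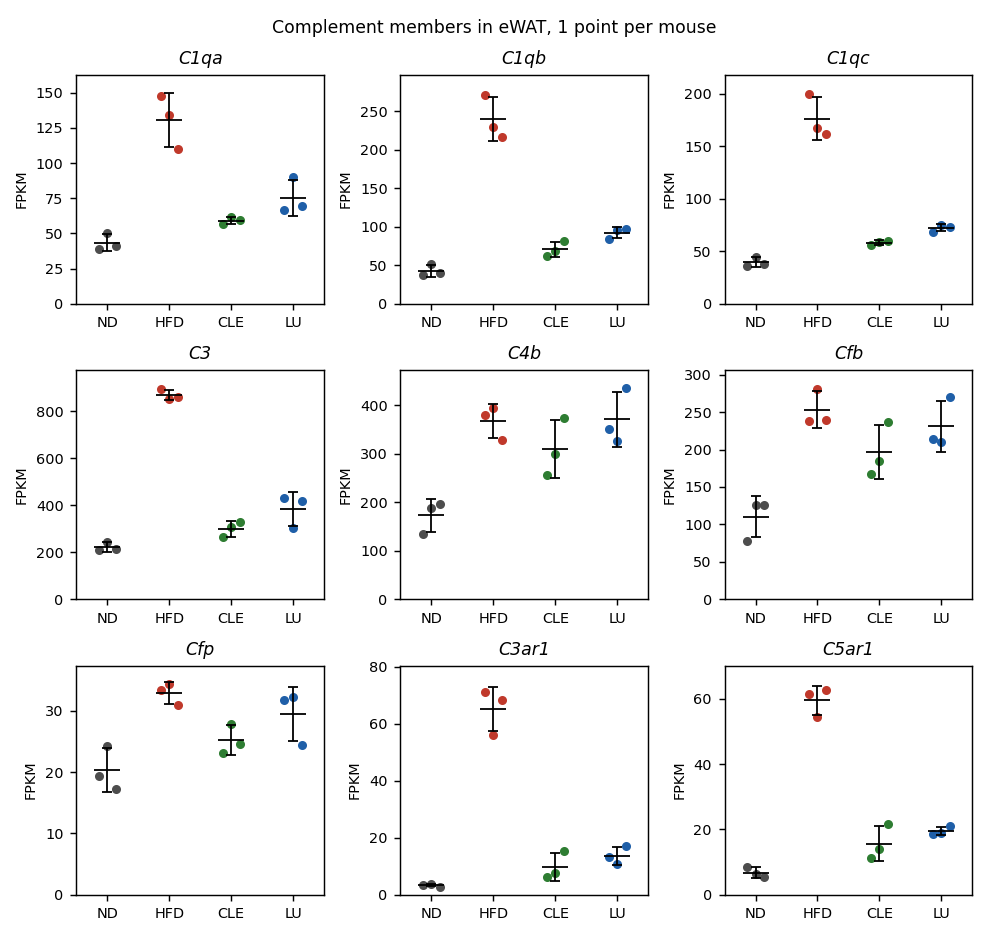
FPKM of the 9 complement genes in the 12 libraries, with 1 point per mouse and the mean ± SD of each group of 3 in black, on axes that start at 0. The 3 HFD mice stand above all others for *C1qa*, *C1qb*, *C1qc*, *C3*, *C3ar1* and *C5ar1*, while for *C4b*, *Cfb* and *Cfp* the LU mice overlap them.

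In HFD against ND, all 9 members were called higher, where 14.8% of all genes tested were. The groups did not overlap for any of the 9, as in 30.2% of all genes. The median difference of the members was 1.97, and that of all genes was -0.02. With CLE, 6 of the 9 members were called lower than with the HFD (10.1% of all genes), and 8 did not overlap it from below (26.2% of all genes). With LU, 6 were called lower (7.64% of all genes), and 6 did not overlap (22.0% of all genes). The 6 were *C1qa*, *C1qb*, *C1qc*, *C3*, *C3ar1* and *C5ar1* in each case. Both comparisons use the same HFD mice, so they are not independent. The median difference of the members was -1.54 with CLE and -1.19 with LU, against 0.01 and 0.03 over all genes. Across the alternatives run, 8 or 9 members were called with the HFD, 6 with CLE and 6 with LU.

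CLE and LU were also compared directly, though their doses differ. None of the 9 members was called by limma, where 0.00783% of all genes were (1 gene). At an unadjusted p under 0.05, 4 members (*C1qa*, *C1qb*, *C1qc* and *C3*) were lower with CLE, and their adjusted p was 0.89. Of all genes, 5.26% had an unadjusted p under 0.05 in either direction. The CLE mice were all below the LU mice for the 3 C1q chains, as in 6.34% of all genes. The difference was -0.34 (95% interval -0.65 to -0.02) for *C1qa*, -0.39 (-0.70 to -0.08) for *C1qb*, -0.31 (-0.54 to -0.08) for *C1qc* and -0.34 (-0.64 to -0.05) for *C3*. The widest interval was that of *C3ar1*, at -0.51 (-1.07 to 0.04). These intervals do not show that the supplements act alike.

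**Figure D2:**
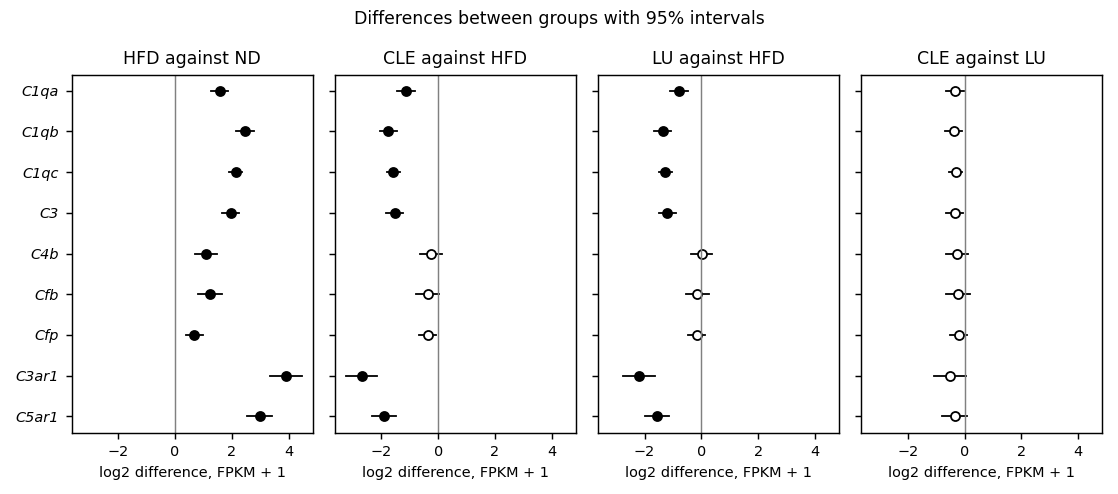
Differences of the 9 members in 4 comparisons on the log2(FPKM + 1) scale, with 95% intervals. Filled points were called and open points were not. *C3ar1* has the largest rise (3.91), and the open points in the CLE and LU panels are *C4b*, *Cfb* and *Cfp*.

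Against the ND, several members stayed higher in the supplemented mice. In the CLE group 5 members were called higher than with the ND (2.07% of all genes), namely *C1qb* (0.72 ± 0.14), *C4b* (0.84 ± 0.17), *Cfb* (0.85 ± 0.19), *C3ar1* (1.21 ± 0.25) and *C5ar1* (1.07 ± 0.20). Their adjusted p lay between 0.0164 and 0.0314. Except for *Cfp*, the CLE mice lay above the ND mice for all members (13.2% of all genes did so). The calls depended on single libraries. They numbered 1 without ND mouse 2, 2 without CLE mouse 4 and 2 without CLE mouse 11. Without the 4 libraries marked R, ND mouse 2 was the only one of its group. The differences were then 0.92 for *C1qb*, 1.20 for *C4b*, 1.34 for *Cfb*, 1.30 for *C3ar1* and 0.81 for *C5ar1*. In the LU group 8 members were called higher than with the ND (4.97% of all genes), from 0.77 ± 0.14 for *C3* to 1.73 ± 0.25 for *C3ar1*. *Cfp*, at 0.52 ± 0.14, was under the 1.5-fold threshold. All 9 members lay above the ND mice without overlap, as in 18.5% of all genes. Without the libraries marked R, and so with ND mouse 2 alone in its group, the difference was 0.77 for *C3*, 1.72 for *C3ar1* and 1.14 for *C5ar1*.

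The order of the members by summed FPKM changed between groups. By the main transcript alone, the mean of *C4b* was above that of *C3* in every group. With the ND and the HFD, *C3* was followed by *C4b* and *Cfb*, and *C3* overlapped neither. With CLE the mean of *C4b* (311 FPKM) was above that of *C3* (300.1), and these 2 overlapped, as they did with LU (372 and 384). *Cfp* was above both receptors with the ND, CLE and LU, and below both with the HFD, where it was the lowest member at 32.9 ± 1.78 FPKM. Within each mouse, *C5ar1* was above *C3ar1* in all ND, CLE and LU mice, and below it in all HFD mice. The ranges of the 2 receptors over the mice of a group overlapped with the HFD and CLE.

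Ratios within a library, which do not depend on its scaling, set *C4b* and *Cfb* apart from *C3*. They use the summed FPKM, which for *C3* includes its processed and assembled forms, and were not computed for single transcripts. *C4b* over *C3* was 0.645, 0.764 and 0.927 in the ND mice and 0.425, 0.462 and 0.382 in the HFD mice. It was 0.972, 0.977 and 1.14 with CLE and 0.817, 1.08 and 1.04 with LU. The HFD mice were the lowest, and the CLE mice were above the ND mice. The ratio of *Cfb* to *C3* was 0.494 ± 0.11 (SD, n = 3) with the ND, 0.291 ± 0.034 with the HFD, 0.652 ± 0.063 with CLE and 0.611 ± 0.10 with LU. *C4b* over *Cfb* stayed between 1.37 and 1.72 in all 12 mice. For the first 2 ratios, the exact permutation test gave its smallest p of 0.1 in HFD against ND and in both supplements against the HFD. For *C4b* over *Cfb* it gave 0.3, 0.3 and 0.2.

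**Figure D3:**
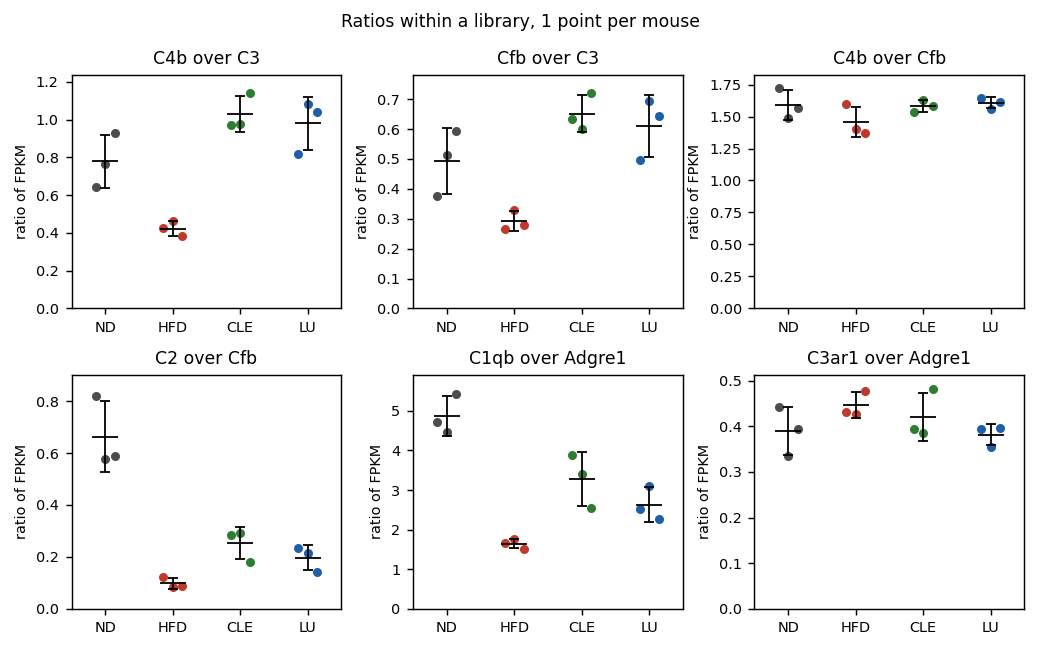
Ratios of FPKM between genes of the same library, with 1 point per mouse and the mean ± SD of each group of 3 in black. *C4b* and *Cfb* over *C3* are lowest with the HFD, *C4b* over *Cfb* stays between 1.37 and 1.72, and *C3ar1* over the macrophage marker *Adgre1* overlaps between the HFD and the ND.

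The other genes of the complement system were described from a list of 50, of which 31 passed the filter. In HFD against ND, 11 of the 31 were called higher (14.8% of all genes) and 7 lower (10.8% of all genes). *Vsig4* and *Cfi*, among those called higher, passed the filter through the HFD mice, so these calls were not independent of the filter. With CLE, 2 were called higher than with the HFD (6.34% of all genes) and 11 lower (10.1% of all genes). With LU, 2 were called higher (4.81% of all genes) and 7 lower (7.64% of all genes). None of the 31 was called by limma between CLE and LU, and 5 had an unadjusted p under 0.05 (5.26% of all genes). The median difference of the 31 genes was 0.15 with the HFD, -0.08 with CLE and 0.02 with LU.

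The partners of *Cfb* and *C4b*, *Cfd* and *C2*, fell where these rose. *Cfd*, the protease that activates factor B, was 7206, 4560 and 3999 FPKM in the ND mice and 425, 532 and 383 in the HFD mice. With CLE it was 2190, 2466 and 1550 FPKM, and with LU 1723, 1754 and 1416. The HFD mice were the lowest and the ND mice the highest, without overlap. *Cfd* fell by 3.52 ± 0.23 with the HFD (adjusted p = 7.49e-07), and was 2.2 ± 0.23 higher with CLE (adjusted p = 4.86e-05) and 1.87 ± 0.23 higher with LU (adjusted p = 0.000254) than with the HFD. *Cfb* was 0.0233 ± 0.011 of *Cfd* with the ND and 0.572 ± 0.048 with the HFD, a ratio of means of 24.5. It was 0.101 ± 0.045 with CLE and 0.145 ± 0.040 with LU.

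*C2*, the classical counterpart of factor B and its neighbour on the chromosome, also fell. It was 64.3, 72.5 and 74.3 FPKM with the ND, 29.1, 23.4 and 20.7 with the HFD, 47.3, 53.9 and 43.1 with CLE, and 49.9, 44.7 and 38.4 with LU. The 2 supplemented groups overlapped each other and lay between the ND and the HFD. The fall was 1.50 ± 0.14 with the HFD (adjusted p = 6.44e-06), and *C2* was 0.96 ± 0.14 higher with CLE (adjusted p = 0.000362) and 0.84 ± 0.14 higher with LU (adjusted p = 0.00134). *C2* over *Cfb* went from 0.662 ± 0.14 with the ND to 0.0973 ± 0.022 with the HFD, and was 0.252 ± 0.061 with CLE and 0.196 ± 0.048 with LU. The 2 genes do not overlap, but a readthrough gene covers parts of both, and part of their reads may be assigned to it. Against the ND, *Cfd* and *C6* were called lower with CLE, where 0.854% of all genes were. *C2*, *Cfd* and *C6* were called lower with LU, where 1.62% of all genes were. In the other direction, 4 of the other complement genes were called higher with CLE than with the ND, *Serping1* by 0.77, *Itgam* by 1.00, *Itgax* by 1.93 and *Itgb2* by 1.64, where 2.07% of all genes were called higher. With LU 6 were, *Serping1* by 1.12, *C5ar2* by 0.77, *Itgam* by 1.63, *Itgax* by 2.39, *Itgb2* by 2.12 and *Cd93* by 0.68, where 4.97% of all genes were.

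The proteases that C1q activates did not pass the test. *C1s1* was 118 to 149 FPKM with the ND and 122 to 137 with the HFD, a difference of -0.06 (-0.34 to 0.22). *C1ra* was 22.8 to 27.1 FPKM with the ND and 25.7 to 31.0 with the HFD, a difference of 0.15 (-0.11 to 0.41). Of the lectin pathway, *Masp1* fell by 0.72 ± 0.14 with the HFD (1.30 to 2.08 FPKM in the ND mice), and the other 3 genes tested were not called. In the terminal pathway, which forms the membrane attack complex, *C6* fell by 1.06 ± 0.20 with the HFD (33 to 42 FPKM in the ND mice), and *C7* and *C8g* were not called. *C8a*, *C8b* and *C9* were at most 0.14 FPKM.

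The regulators in plasma and on membranes moved in different ways. *Serping1*, the inhibitor of the C1 proteases, was 131 to 143 FPKM with the ND, 383 to 435 with the HFD, 200.4 to 259 with CLE and 278 to 331 with LU. It rose by 1.58 ± 0.11 with the HFD and fell by 0.82 ± 0.11 with CLE, and the difference with LU, -0.47 ± 0.11, was under the 1.5-fold threshold. *Cfi*, the protease that degrades C3b and C4b, rose by 1.19 ± 0.29 from 0.45 FPKM or less in the ND mice, and fell by 1.29 ± 0.29 with CLE. Only the HFD mice and LU mouse 8 (1.93 FPKM) reached 1 FPKM, so *Cfi* was tested because of them. *Clu*, a chaperone that blocks the membrane attack complex, rose by 0.95 ± 0.25 and fell by 0.78 ± 0.25 with CLE. On membranes, *Cd46* (-0.76 ± 0.14), *Cd59b* (-0.63 ± 0.24) and *Susd4* (-0.77 ± 0.23) fell with the HFD. None of the 6 genes tested was called by limma with CLE or LU. At an unadjusted p under 0.05 there were 1 and 3, where 43.9% and 39.2% of all genes were.

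The other receptors rose with the HFD as *C3ar1* and *C5ar1* did. All 8 tested were called higher with the HFD (14.8% of all genes). Against the HFD, 7 were called lower with CLE (10.1% of all genes) and 6 with LU (7.64% of all genes). *Itgam*, *Itgax* and *Itgb2*, the chains of complement receptors 3 and 4, rose by 3.45 ± 0.18, 4.76 ± 0.48 and 3.97 ± 0.32. They fell by 2.45 ± 0.18, 2.83 ± 0.48 and 2.33 ± 0.32 with CLE, and by 1.82 ± 0.18, 2.37 ± 0.48 and 1.85 ± 0.32 with LU. *C5ar2*, the other C5a receptor, rose by 1.93 ± 0.15 and fell by 1.59 ± 0.15 with CLE and by 1.16 ± 0.15 with LU. *Vsig4*, a receptor for C3b on macrophages, was 0.48 to 0.61 FPKM with the ND and 3.38 to 3.89 with the HFD, and 0.39 to 0.92 in the supplemented mice. It reached 1 FPKM only in the HFD mice and passed the filter through them. Its calls therefore add no support to the counts of receptors. *Lrp1* and *Calr*, which take part in the uptake of cells bound by C1q, rose by 0.74 ± 0.12 and 0.97 ± 0.13. *Cd93* rose by 1.08 ± 0.20.

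**Figure D4:**
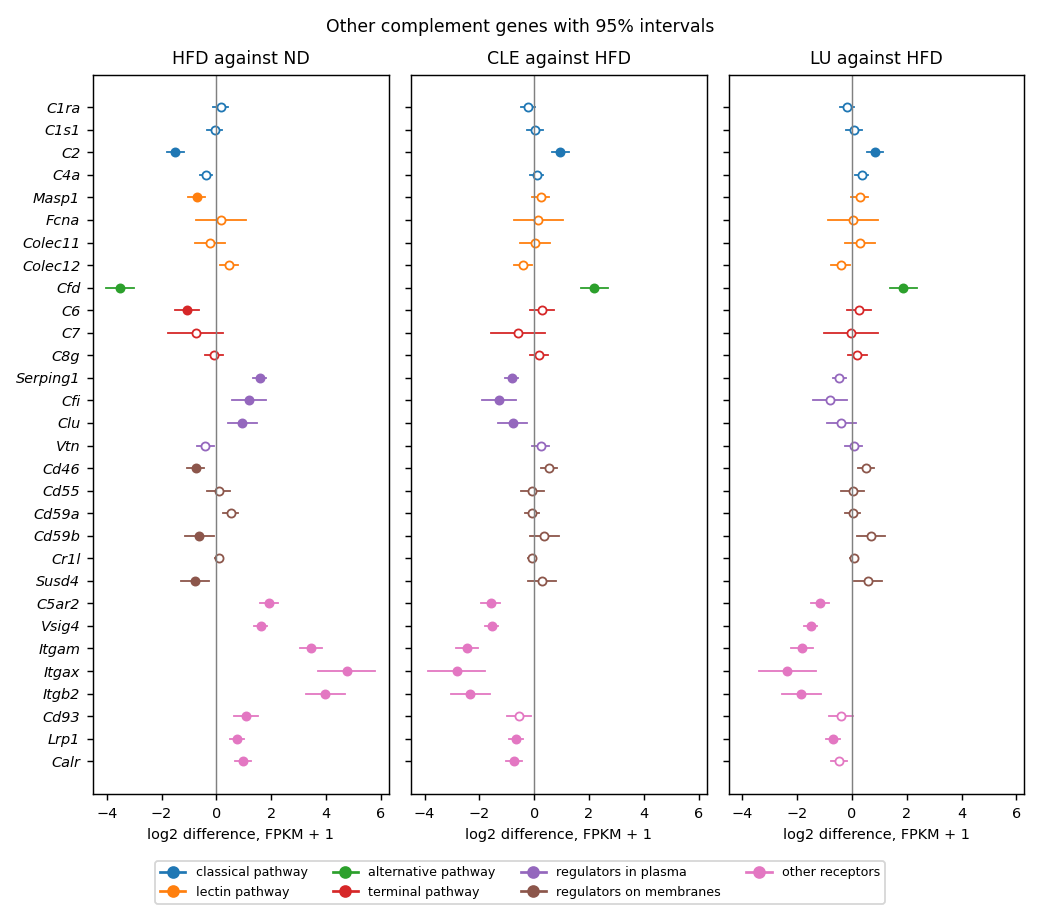
Differences of the other complement genes tested, apart from 1 that is not reported here, on the log2(FPKM + 1) scale with 95% intervals, coloured by role. Filled points were called. *Cfd* and *C2* lie on the opposite side from the receptors in each panel.

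Most macrophage markers moved in the directions of *C1qa*, *C1qb*, *C1qc*, *C3*, *C3ar1* and *C5ar1*. *C4b*, *Cfb* and *Cfp* rose with the HFD too, but were not called lower with CLE or LU. In whole tissue, more cells of a type and more RNA per cell cannot be told apart. The summed FPKM of 8 macrophage markers, mostly *Lyz2*, was 342 to 513 with the ND, 2505 to 2947 with the HFD, 598 to 966 with CLE and 988 to 1155 with LU. Of the 8, 7 were called higher with the HFD, and 7 were called lower than the HFD with CLE and with LU. *Mertk* overlapped between the ND (19.3 to 22.5 FPKM) and the HFD (22.2 to 26.0 FPKM). The sum of 7 adipocyte markers was 27787 to 28918 with the ND, 16422 to 18378 with the HFD, 24369 to 26477 with CLE and 22731 to 27929 with LU, and *Fabp4* made up most of it. With the HFD 6 of the 7 were called lower and 1, *Lep*, higher, at 194 to 302 FPKM with the ND and 1172 to 1291 with the HFD. Against the HFD, 6 were called higher and 1 lower with CLE, and 2 higher and 1 lower with LU. Of all genes, 14.8% were called higher and 10.8% lower with the HFD, 6.34% and 10.1% with CLE, and 4.81% and 7.64% with LU.

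The summed FPKM of 7 neutrophil markers was 6.93 to 15.7 with the ND, 73.9 to 123 with the HFD, 14.4 to 28.5 with CLE and 23.0 to 55.1 with LU. The defining neutrophil marker *Ly6g* was listed at 0 in every library, while *S100a8* was 4.84 to 14.1 FPKM with the ND and 69.7 to 118 with the HFD. Of the 3 neutrophil markers tested, *S100a8* and *Csf3r* were called higher with the HFD and *S100a9* lower. Of 6 fibroblast and progenitor markers, *Lum* and *Col1a1* were called higher with the HFD and lower with CLE and with LU than with the HFD, and the list's sum was 590 to 823 FPKM with the ND, 792 to 880 with the HFD, 475 to 683 with CLE and 577 to 722 with LU. Of 6 mesothelial markers 5 were called lower with the HFD, and their sum was 9.85 to 59.7 FPKM with the ND, 2.32 to 7.29 with the HFD, 7.65 to 12.6 with CLE and 8.31 to 17.3 with LU. With the HFD, 1 of 5 endothelial and 2 of 6 liver markers tested were called lower (10.8% of all genes). Of the dendritic cell markers 1 of 5, and of the T cell markers 1 of 2, were called higher (14.8% of all genes). The 1 B cell marker tested was not called. The liver marker *Alb* was at most 19.8 FPKM. The part of these cell types in the differences was not tested.

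*Adgre1*, which encodes the macrophage marker F4/80, was 7.8, 11.5 and 7.34 FPKM with the ND, 164, 131 and 143 with the HFD, 15.9, 20.1 and 31.9 with CLE, and 33.3, 30.7 and 43.0 with LU. Of the members, only *C3ar1* overlapped between ND and HFD mice when divided by *Adgre1*, at 0.390 ± 0.053 (SD, n = 3) with the ND, 0.446 ± 0.028 with the HFD, 0.421 ± 0.053 with CLE and 0.382 ± 0.024 with LU. The other 8 were lower relative to *Adgre1* with the HFD than with the ND, without overlap (exact permutation p = 0.1, the smallest possible). *C5ar1* went from 0.798 ± 0.28 to 0.409 ± 0.032, *C1qb* from 4.87 ± 0.50 to 1.64 ± 0.12, and *Cfp* from 2.32 ± 0.19 to 0.227 ± 0.030. *C3* went from 25.7 ± 3.89 to 5.99 ± 0.52. These ratios hold for *Adgre1* alone, and ratios to other macrophage markers were not computed. Those markers rose by unlike amounts. The mean of *Csf1r* went from 26.4 FPKM with the ND to 141 with the HFD, and that of *Cd68* from 14.9 to 266. Whether a member rose more or less than macrophage markers as a set was therefore not tested.

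**Figure D5:**
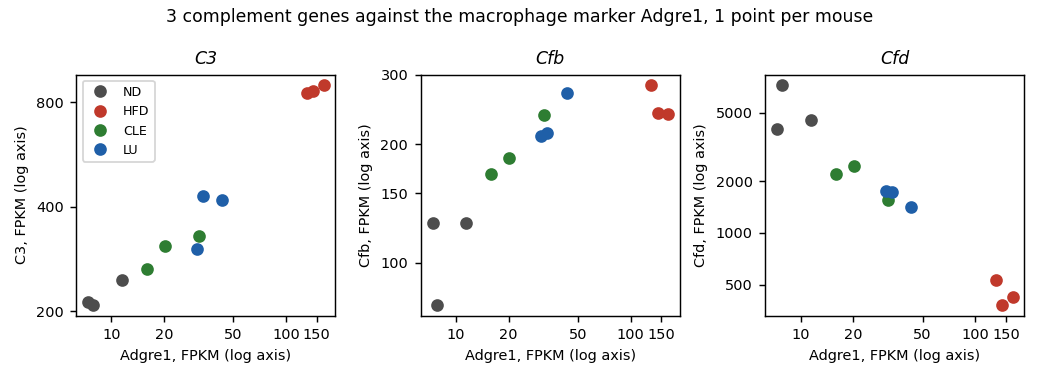
*C3*, *Cfb* and *Cfd* against the macrophage marker *Adgre1* in the 12 libraries, in FPKM on log axes. *C3* is high only in the HFD mice (853 to 895 FPKM), *Cfb* is as high in LU mouse 8 (270 FPKM) as in the HFD mice, and *Cfd* is lowest in the HFD mice (383 to 532).

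Across the 12 libraries, Pearson's r of the log2 values was 0.996 between *C1qb* and *C1qc*, 0.992 between *C3ar1* and *C5ar1*, and 0.986 between *C4b* and *Cfb*. Between *C3* and *C4b* it was 0.701. These r describe libraries of 4 groups and follow mainly the group means. The gene most like *C4b* among all genes tested was *Cfb*, and the reverse, followed for each by the collagen gene *Col16a1* (0.978 and 0.980). *C3ar1* was most like *Lcp1*, *Tlr1* and *Cyth4* (0.999, 0.999 and 0.998), and *C5ar1* like *Cd300a*, *Igsf6* and *Evi2a* (0.995, 0.994 and 0.994). *C1qa* was most like *Ly86*, *Ctsh* and *C1qb* (0.985, 0.983 and 0.981), and *C1qb* like *C1qc*, *Ly9* and *Ptpro* (0.996, 0.996 and 0.995). The nearest genes were *C1qb*, *Ptpro* and *Tlr2* for *C1qc* (0.996, 0.992 and 0.992), and *Btk*, *Naip2* and *Sh3pxd2b* for *C3* (0.992, 0.991 and 0.991). For *Cfp* they were *Fcgr2b*, *Lsp1* and *Rasgrp1* (0.974, 0.938 and 0.935). The third gene after *Cfb* and *Col16a1* was *Ephx1* (0.972) for *C4b*, and that for *Cfb* after *C4b* was *Cela1* (0.978).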

How the data were processed

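Total RNA of eWAT from 3 mice per group was sequenced as paired-end TruSeq libraries. The submitters' processing notes name CASAVA 1.8.2, Bowtie2 2.2.3, TopHat2 2.0.12 and Cufflinks 2.2.1. The authors deposited FPKM values for 152210 transcripts in 15 columns, of which 3 could be matched to no label and were left aside. The table also holds the authors' marks of called transcripts, which were not used.

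Transcripts, known or assembled as forms of a known one, were assigned by Ensembl identifier to GENCODE M21 genes (GRCm38) and summed, giving 434360 to 454257 FPKM per library. GENCODE held 76916 of the 78786 known transcripts, 87.6% with identical ends. The deposited gene name finds 8 of the 9 members, because it follows merged loci. A sum by that name was an alternative chosen after seeing the data.

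The 12769 genes with at least 1 FPKM in at least 3 of the 12 libraries were tested on log2(FPKM + 1) with limma (version 3.58.1, R 4.3.3), in 1 fit with a coefficient per group, and adjusted by Benjamini-Hochberg within each comparison. The study's own test used counts and was not repeated. Low FPKM values fell within 0.1 of a whole multiple of the step estimated for each library in 27.0% to 34.7% of cases, where even spread gives 20%, so reads were not recovered and the depth is unknown. The labels do not pair the mice. The limma p-values set a difference between groups against the spread between these mice within groups, pooled over the 4 groups and moderated over the genes tested.

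The members, gene lists, markers and motifs were chosen with earlier results of these data known. Named genes were all members, other complement genes called in at least 1 comparison with *Cfd*, and the 3 genes most correlated with each member. The result of 1 gene is not shown. Tables used Python 3.11.15 with pandas 2.3.3 and numpy 2.4.6, and plots matplotlib 3.10.9.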

Additional observations from a re-analysis of the deposited data

How the results depend on the processing

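The counts of called members with the HFD against the ND (8 to 9), with CLE and with LU against the HFD (6 each) and between CLE and LU (0) stayed within 1.5 times the reported ones in all alternatives, as did those of the other complement genes. The loss in HFD against ND was *Cfb* with the transcript of the highest mean (0.91, adjusted p = 0.542) and *Cfp* without ND mouse 4. Against the ND, calls depended on the setting. For CLE the 5 called members became 3 with no filter on low values, 0 in a fit of only the groups compared (8 at an unadjusted p under 0.05), 0 without the libraries marked R, and 1 to 6 when 1 library was left out. For LU the 8 members became 5 without the libraries marked R. Among the other complement genes, the 6 called for CLE became 0 with only the groups compared (12 at an unadjusted p under 0.05), 3 without the libraries marked R, 3 with the transcript of the highest mean, and 2 to 6 when 1 library was left out. The 9 called for LU became 5 without the libraries marked R. The cause was not tested.

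With the mouse number as a replicate block, the called members were 0 for CLE (9 at an unadjusted p under 0.05) and 3 for LU, and the other complement genes 0 (9 unadjusted) and 4. Of all genes, 0.00783% were called in that fit for CLE and 1.64% for LU. Mice of the same number did not deviate together (r between -0.0993 and 0.189), and the labels do not say that the numbers pair mice. The HFD mice share no number with the other groups.

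Changes of sign concerned differences near 0 or single transcripts. *C4b* in LU against HFD was -0.029 by median ratios, -0.038 by quantiles, -0.032 with the letter R as covariate, -0.038 with the transcript of the highest mean, -0.022 with known transcripts only, and between -0.11 and 0.094 when 1 library was left out (-0.07 without HFD mouse 18 and -0.11 without LU mouse 8). With the transcript of the highest mean, *Cfb* was 0.093 in LU against HFD and -1.09 in CLE against ND, and *C5ar1* was 0.39 in CLE against LU. The depth behind the FPKM is unknown, so no floor could be set for low genes.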
